A study of Mus musculus with 8 samples.

Results

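Translation initiation and elongation factors are the proteins that recruit ribosomes to mRNA, find the start codon and then move the ribosome along the coding sequence. Their genes were taken by symbol: all mouse symbols that begin with Eif1 to Eif6 or with Eef1 or Eef2 and continue in small letters or digits were members, without pseudogene (-ps) symbols. This gave 66 genes of the 51822 symbols used, among them regulators such as kinases, binding inhibitors and methyltransferases that carry these names. Sequenced RNA came from mouse osteoblast progenitors, which the sample labels name as MC3T3-E1 cells (an osteoblastic line from mouse calvaria) and the series design and the study's methods name as calvarial cells. The cells received either vehicle (DMSO, the control) or LAMZ (locamidazole, a compound that the study examined for anabolic effects on muscle and bone) at 1 μM. All of them grew in an osteogenic medium of α-MEM with serum, ascorbic acid, dexamethasone and β-glycerophosphate and were harvested on day 7 or day 14 of culture, with 2 libraries for each treatment on each day. The question is what LAMZ did to the RNA of each factor, and whether the factors encoded by terminal oligopyrimidine (TOP) mRNAs moved with the ribosomal proteins.

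TOP mRNAs start at the cap with a cytosine followed by an unbroken run of pyrimidines. They encode the ribosomal proteins and a group of translation factors, and their translation is known to be switched on by mTOR and held back by LARP1, so that the machinery of protein synthesis is made in step. Osteoblasts secrete large amounts of collagen and other matrix proteins, for which they need a high capacity for translation. The present data measure RNA levels, not translation or phosphorylation.

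The values were RPKM, reads divided by gene length and by the number of mapped reads. Depth, recovered from the values, came to 3769717 and 3463016 in the day 7 control libraries, 4264650 and 5208021 in the day 7 LAMZ libraries, 5370924 and 4520353 in the day 14 control libraries and 5833633 and 4881878 mapped reads in the day 14 LAMZ libraries. A gene was tested if 2 or more of the 8 libraries reached an RPKM of 1. The 12514 such genes were fitted together in limma on log2(RPKM + 1), with p adjusted over all of them. Changes are differences on this log2 scale, LAMZ minus control, with standard errors (SE), and understate the change of genes at low RPKM. Of the 66 members, 62 were tested. The labels do not say whether the 2 libraries of a group came from separate cultures, so p-values measure only the spread between these samples, which may be technical. With 2 libraries against 2, the smallest two-sided p of an exact permutation test is 0.333. The correlation between replicates, taken across genes, which are not independent replicates, was 0.961 to 0.980 (Pearson's r), and replicates differed by more than counting noise (chi-square of 3.67 to 5.90 per gene).

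The labelled cell type was compared with marker genes. Of 7 osteoblast markers, all were tested, and 6 were higher with LAMZ averaged over both days, against 9.12% of all tested genes. With the same sum of RPKM 4 of the 7 were (all tested genes 4.47%). With the same sum over protein-coding genes and under quantile normalization 5 were (all tested genes 8.08% and 13.5%), and under centring on the median of tested genes 6 (16.1%). Col1a1, the most abundant and the gene of a type I collagen chain, had an RPKM of 4354 and 5451 in the day 7 controls and 6252 and 6049.9 with LAMZ at day 7. At day 14 Col1a1 was at 6658 and 6220.4 without and 8936 and 9964 with LAMZ. The summed RPKM of the 7 was 4497 and 5696 in the day 7 controls, 6844 and 6638 with LAMZ at day 7, 7201 and 6784 in the day 14 controls and 10078 and 11399 with LAMZ at day 14. The averaged change of Col1a1, 0.44 ± 0.12 (SE, limma adjusted p = 0.0237), turned to -0.18 under quantile normalization. Alpl, the alkaline phosphatase of mineralizing cells, changed by 2.07 ± 0.17 (SE, limma adjusted p = 1.1e-04) and Dmp1, a matrix protein of late osteoblasts and osteocytes, by 3.20 ± 0.12 (SE, limma adjusted p = 2.9e-06). Bglap (osteocalcin) had an RPKM of 22.7 and 70.5 in the day 7 controls and 61.1 and 67.7 with LAMZ at day 7. At day 14 Bglap was at 351 and 364 without and 248 and 426 with LAMZ. Its groups overlapped on both days, and it did not pass (changes of 0.66 at day 7 and -0.14 at day 14, SE 0.46, limma adjusted p = 0.395 and 0.857, averaged 0.26 ± 0.32, SE, limma adjusted p = 0.585).

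Macrophage markers were also present, and they moved with LAMZ. All 12 of 12 were lower averaged over both days (10 at day 7 and 11 at day 14). Of all tested genes 20.3% were lower averaged, 8.49% at day 7 and 16.0% at day 14. The summed RPKM of the 12 macrophage markers was 459 and 592 in the day 7 controls, 9.13 and 7.22 with LAMZ at day 7, 1102 and 1149 in the day 14 controls and 7.09 and 7.57 with LAMZ at day 14. The most abundant was Lyz2, the lysozyme of myeloid cells. C1qa, C1qb and C1qc (complement), Tyrobp and Laptm5 were listed at 0 in all 4 LAMZ libraries, 5 markers in all, while in the controls C1qa was at 33.9 and 31.9 RPKM at day 7 and 74.0 and 59.1 at day 14. C1qb in these controls was at 30.7 and 37.7 RPKM at day 7 and 91.2 and 97.4 at day 14. In bulk RNA, fewer cells of a type and less RNA per cell cannot be told apart, and each factor below is measured over whatever mixture of cells a library held. The part of these markers in the results on the factors was not tested.

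Of 4 endothelial markers 1 was tested and lower (Tek, averaged -1.03 ± 0.16, SE, limma adjusted p = 0.00224), while Cdh5 and Pecam1 did not exceed 1.05 RPKM in any library. The 4 endothelial markers summed to 2.82 and 1.52 in the day 7 controls, 2.63 and 2.61 in the day 14 controls and from 0.721 to 0.811 in the 4 LAMZ libraries. Of 4 adipocyte markers 3 were tested. Fabp4 (changes of -1.50 at day 7 and -3.64 at day 14, SE 0.74, limma adjusted p = 0.233 and 0.0104) and Adipoq (changes of -0.56 at day 7 and -2.64 at day 14, SE 0.61, limma adjusted p = 0.604 and 0.0180) were lower at day 14 and averaged and did not pass at day 7. Cfd did not pass on the deposited scale (averaged -1.54 ± 0.53, SE, limma adjusted p = 0.0635), and without each library in turn its averaged change ranged over -2.23 to -0.850. The summed RPKM of the adipocyte markers was 8.41 and 1.60 in the day 7 controls, 0.532 and 0.470 with LAMZ at day 7, 11.05 and 71.3 in the day 14 controls and 1.14 and 0.501 with LAMZ at day 14. Averaged over both days all 3 chondrocyte markers differed on the deposited scale, with Col2a1 (1.33 ± 0.13, SE, limma adjusted p = 3.1e-04) and Acan (2.92 ± 0.15, SE, limma adjusted p = 9.1e-06) higher and Sox9 (-0.42 ± 0.12, SE, limma adjusted p = 0.0293) lower. Of all tested genes 9.12% were higher and 20.3% lower averaged. Sox9 did not pass at day 7 (-0.17, limma adjusted p = 0.551), and its averaged call was lost under centring and under quantile normalization. The 3 chondrocyte markers summed to 225 and 153 in the day 7 controls, 403 and 425 with LAMZ at day 7, 86.5 and 97.2 in the day 14 controls and 291 and 302 with LAMZ at day 14. Of 4 skeletal muscle markers 1 was tested, Acta1, which was higher at day 14 and did not pass at day 7 (changes of 0.076 at day 7 and 3.26 at day 14, SE 0.43, limma adjusted p = 0.935 and 0.00164, the first -0.13 with the same sum), and Myog and Myod1 were at or under 0.274 RPKM. The 4 muscle markers summed to 4.98 and 1.23 in the day 7 controls, 2.30 and 3.69 with LAMZ at day 7, 1.35 and 1.70 in the day 14 controls and 23.3 and 19.0 with LAMZ at day 14. Their part in the results on the factors was not tested either.

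The members summed to an RPKM of 3657 and 3601 in the day 7 controls, 4602 and 4617 with LAMZ at day 7, 2956 and 3515 in the day 14 controls and 5123 and 4634 with LAMZ at day 14. On each day this sum was higher in both LAMZ libraries than in either control. As a share of the RPKM of all protein-coding genes this was 1.99% and 2.08% in the day 7 controls, 2.51% and 2.45% with LAMZ at day 7, 1.74% and 1.93% in the day 14 controls and 2.67% and 2.48% with LAMZ at day 14. As a share of the RPKM of all genes it was 1.01% and 1.06% in the day 7 controls, 1.08% and 1.06% with LAMZ at day 7, 0.992% and 1.23% in the day 14 controls and 1.36% and 1.23% with LAMZ at day 14, so the groups overlapped at day 7 and, to 3 digits, met at day 14. The pair Eef1a1 and Eef2 made up 53.7% to 63.4% of the members' sum.

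On the deposited scale more of these genes were higher than lower with LAMZ in each comparison, a balance that turned when libraries were brought to the same sum of RPKM, which put more of all tested genes lower as well. At day 7, 5 of the 62 tested members were higher with LAMZ (Eef1g, Eef2k, Eif2a, Eif3h and Eif4b) against 4.35% of all tested genes, and 1 was lower (Eif2ak2) against 8.49%. At day 14, 17 members were higher, against 6.96% of all tested genes, and 1 was lower (again Eif2ak2), against 16.0%. Averaged over both days, 19 were higher (all tested genes 9.12%) and 2 lower, Eif2ak2 and Eif4g3 (all tested genes 20.3%). Altogether 23 members passed in 1 or more of these comparisons. The median change of the tested members was 0.079 at day 7 and 0.23 at day 14, where that of all tested genes was -0.080 and -0.15, while the members' medians turned to -0.18 and -0.11 with the same sum of RPKM. Without each library in turn they ranged over -0.0029 to 0.21 at day 7 and 0.14 to 0.38 at day 14. The plot of the change of each tested factor by role shows these values.

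**Figure D1:**
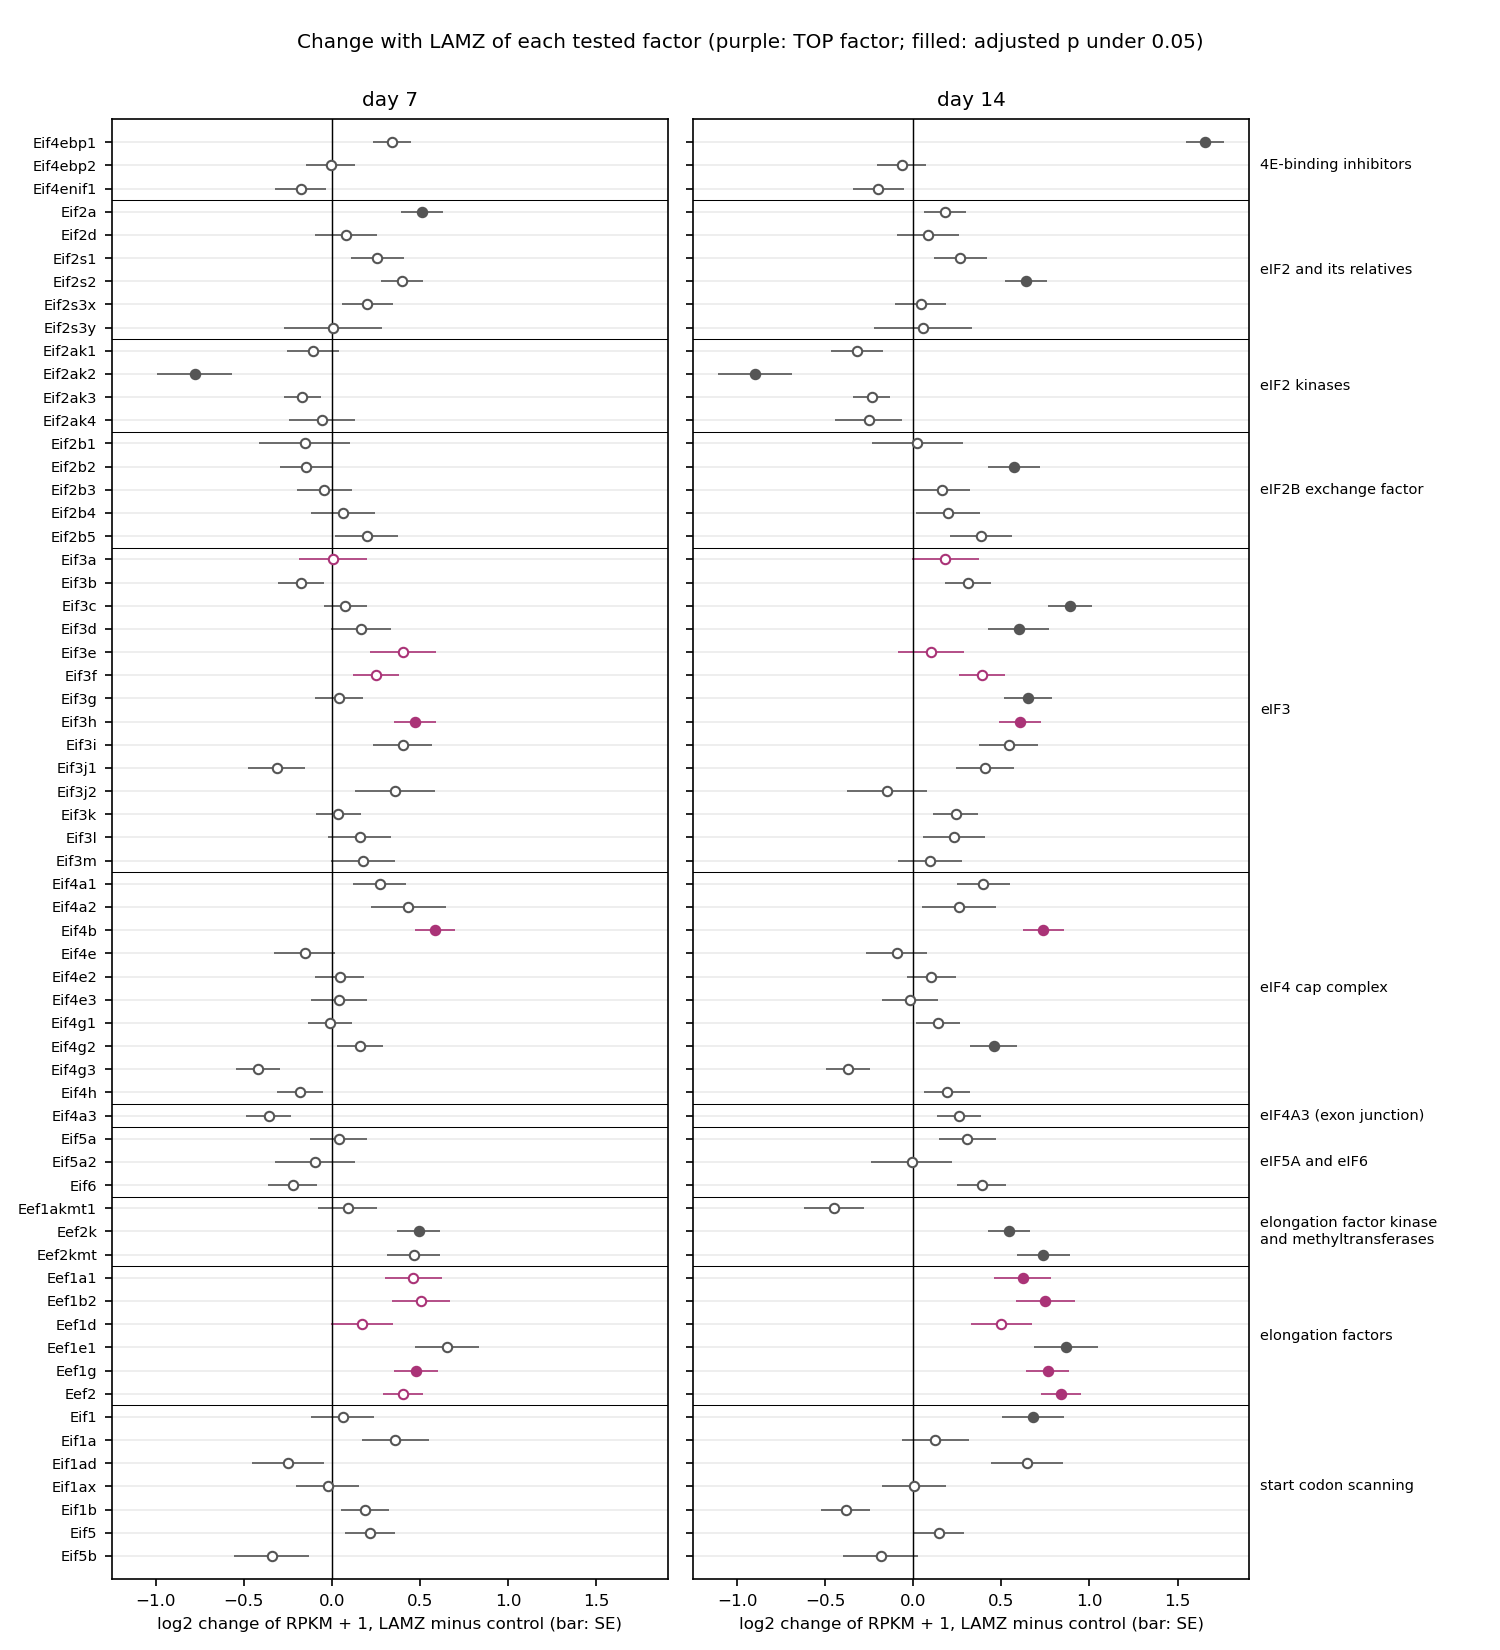
Change with LAMZ of each of the 62 tested factors at day 7 (left) and day 14 (right), as the difference of log2(RPKM + 1), LAMZ minus control, with its standard error as a bar, grouped by role, with points filled where limma gave an adjusted p under 0.05 and purple for TOP factors. At day 14, 17 filled points lie right of 0 and 1 left of it, a balance that becomes 7 and 8 when libraries are rescaled to the same sum of RPKM.

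This balance depends on how libraries are scaled to each other, and the deposited values carry none beyond the division by mapped reads. The summed RPKM of the libraries was higher with LAMZ on both days, 361198 and 338220.4 in the day 7 controls, 427558 and 437003 with LAMZ at day 7, 297868 and 286747 in the day 14 controls and 376912 and 375439 with LAMZ at day 14. A single gene, the signal recognition particle RNA gene Rn7s1, took 18.1% to 33.7% of it. Bringing all libraries to the same sum of RPKM moved the median change of all tested genes from -0.080 to -0.31 at day 7 and from -0.15 to -0.43 at day 14. The members then split in limma into 0 higher and 7 lower at day 7 (0 and 14 at an unadjusted p under 0.05), 7 higher and 8 lower at day 14 and 6 higher and 14 lower averaged. Called lower were 11.3%, 12.9% and 22.6% of the members, against 26.2%, 42.5% and 53.1% of all tested genes. Called higher were 0%, 11.3% and 9.68% of the members, against 2.49%, 3.78% and 4.47%. Centring each library on the median of the tested genes gave 11 higher and 0 lower (unadjusted 23 and 2), 31 higher and 0 lower (unadjusted 37 and 1) and 32 higher and 1 lower, where 6.85%, 12.8% and 16.1% of all tested genes were higher and 5.95%, 9.98% and 12.3% lower. With the same sum over protein-coding genes only, a scaling chosen after seeing the data, the splits were 5 higher and 3 lower, 17 higher and 4 lower and 18 higher and 4 lower, beside 4.17%, 6.18% and 8.08% of all tested genes higher and 11.6%, 23.7% and 28.2% lower. Quantile normalization gave 7 higher and 0 lower (unadjusted 15 and 3), 24 higher and 0 lower (unadjusted 30 and 1) and 22 higher and 2 lower, beside 5.43%, 10.2% and 13.5% higher and 6.46%, 11.1% and 13.7% lower. Relative to the median of all tested genes, the median of the members outside the TOP list stood at 0.12 and 0.33 on the deposited scale at day 7 and day 14, and at 0.098 and 0.30 after rescaling to the same sum.

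With 2 libraries a group, single libraries weighed on the calls. The 5 members higher at day 7 became 0 without day 7 control replicate 1, 1 without day 7 control replicate 2, 0 without day 7 LAMZ replicate 1 and 0 without day 7 LAMZ replicate 2. At an unadjusted p under 0.05 these counts were 15, 8, 10 and 9. Without each day 14 library in turn 3 were higher at day 7. The 1 member lower at day 7 became 0 in limma without any library but day 7 control replicate 1 (2 to 3 at an unadjusted p under 0.05). At day 14 the 17 higher became 6 without day 14 LAMZ replicate 1 and 10 without day 14 control replicate 1, and the 1 lower became 0 in limma without any 1 of the 4 day 14 libraries (unadjusted 1 to 4). The 19 averaged calls became 12 without day 14 LAMZ replicate 1 and 12 without day 7 LAMZ replicate 2, and the 2 lower became 1 without day 7 LAMZ replicate 1. Of the 6 calls of day 7, 0 held in limma without every library in turn. Of the 18 calls of day 14, 5 did (Eef1g, Eef2, Eif3c, Eif4b and Eif4ebp1). So did 13 of the 21 averaged calls (Eef1a1, Eef1b2, Eef1e1, Eef1g, Eef2, Eef2k, Eef2kmt, Eif2ak2, Eif2s2, Eif3c, Eif3h, Eif4b and Eif4ebp1). Of these 13, 7 were also called under all 4 other scalings: Eef1e1, Eef1g, Eef2, Eef2kmt, Eif2ak2, Eif4b and Eif4ebp1.

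TOP factors were taken from a list of 10 genes known for such mRNAs: Eef1a1, Eef1b2, Eef1d, Eef1g and Eef2 for elongation, Eif3a, Eif3e, Eif3f and Eif3h for the eIF3 complex, and Eif4b. RefSeq promoters (GRCm38.p6) were matched for 6 of them. The windows shown hold 30 bases, 5 before the annotated start and 25 from it on, and are printed because the first bases of the transcript define the class. Capitals mark the longest run, if any, of a C followed by at least 4 bases that are C or T, searched on the gene's own strand.
Eef1a1: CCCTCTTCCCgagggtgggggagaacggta
Eef1b2: gttccgccggaagtagccgaggccttgcgt
Eef2: cgggcgttgacgtcagcggtCTCTTCCgcc
Eif3a: gcggcggcgctgccgccgcgagggaatcac
Eif3f: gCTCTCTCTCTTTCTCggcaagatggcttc
Eif4b: tcggacgccgcgccaCCCCCTCgcgctgct
They lie at chr9:78481700-78481729, minus strand (Eef1a1), chr1:63176826-63176855, plus strand (Eef1b2), chr10:81176626-81176655, plus strand (Eef2), chr19:60790669-60790698, minus strand (Eif3a), chr7:108934410-108934439, plus strand (Eif3f) and chr15:102073768-102073797, plus strand (Eif4b), each across the RefSeq start of the transcript. Such a run lay within 20 bases of the start in 4 of the 6 TOP factor promoters, in 48 of 67 ribosomal protein promoters (71.6%), in 25 of 60 promoters of the other members (41.7%) and in 45.9% of all 32851 promoters. Exactly at the annotated start it lay in 1, 14 and 2 of these promoters and in 2.51% of all. A match describes the letters at the annotated start, which can differ from the start used in these cells.

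The 3 members with the highest mean RPKM were the elongation factors Eef1a1, Eef2 and Eef1g. Eef1a1 (chromosome 9, 78478449 to 78489151 on GRCm38), which brings aminoacyl-tRNA to the ribosome and whose window holds a run of 10 pyrimidines, had an RPKM of 1403 and 1487 in the day 7 controls and 2006 and 1975 with LAMZ at day 7. At day 14 Eef1a1 was at 1201.01 and 1542 without and 2246 and 1949 with LAMZ. All 4 LAMZ libraries lay above all 4 controls. The log2 change was 0.46 at day 7 (limma adjusted p = 0.101) and 0.62 at day 14 (adjusted p = 0.0268), each with an SE of 0.16, and 0.54 ± 0.11 (SE, limma adjusted p = 0.00884) averaged. Eef1a1 lost its day 14 call without any one library other than day 7 control replicate 1, day 7 control replicate 2 and day 14 control replicate 2 (limma adjusted p from 0.0515 to 0.163). Neither the day 14 nor the averaged call held after rescaling to the same sum or under quantile normalization. The many processed pseudogenes of Eef1a1 make its reads uncertain.

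Eef2 (chromosome 10, 81176631 to 81182498), the translocase that moves the ribosome by a codon, had an RPKM of 562 and 600.3 in the day 7 controls and 769 and 766 with LAMZ at day 7. At day 14 Eef2 was at 558 and 551 without and 999 and 988 with LAMZ. The control libraries of both days lay close together and all 4 LAMZ libraries lay above them. Its change was 0.40 at day 7 (limma adjusted p = 0.0565) and 0.84 at day 14 (adjusted p = 0.00182), each with an SE of 0.11. The averaged change was 0.62 ± 0.081 (SE, limma adjusted p = 0.00101), and the day 14 and averaged calls held without every library in turn and under all 4 other scalings. Eef1g (chromosome 19, 8967041 to 8978479), the gamma subunit of the exchange complex that reloads eEF1A with GTP, was at 148 and 152 in the day 7 controls and 204 and 216 with LAMZ at day 7. At day 14 Eef1g was at 97.6 and 116 without and 185 and 178 with LAMZ. The groups did not overlap on either day, and the change was 0.48 at day 7 (limma adjusted p = 0.0425) and 0.76 at day 14 (adjusted p = 0.00392), each with an SE of 0.12. Averaged, Eef1g rose by 0.62 ± 0.087 (SE, limma adjusted p = 0.00149). Eef1g lost its day 7 call without any one library other than day 14 control replicate 1 and day 14 control replicate 2 (limma adjusted p from 0.0735 to 0.189), after rescaling to the same sum and under quantile normalization, whereas the others held in each of these settings.

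Eef1b2, the exchange subunit itself, had an RPKM of 87.8 and 74.0 in the day 7 controls and 123 and 107 with LAMZ at day 7. At day 14 Eef1b2 was at 62.7 and 71.4 without and 129 and 99.0 with LAMZ. All LAMZ libraries exceeded all controls. Eef1b2 changed by 0.51 at day 7 (limma adjusted p = 0.0886) and 0.75 at day 14 (adjusted p = 0.0152), each with an SE of 0.17, and 0.63 ± 0.12 (SE, limma adjusted p = 0.00553) averaged. Its day 14 call was lost without day 14 control replicate 1 and day 14 LAMZ replicate 1, left out singly (limma adjusted p from 0.0819 to 0.0941), and both calls were lost after rescaling to the same sum. Pseudogenes make its reads uncertain as well. Eef1d, the delta subunit of the same complex, was at 23.6 and 16.8 in the day 7 controls and 22.4 and 22.8 with LAMZ at day 7. At day 14 Eef1d was at 13.8 and 17.3 without and 23.0 and 21.5 with LAMZ. Its groups overlapped at day 7 and not at day 14, and it did not pass in any LAMZ comparison on the deposited scale (changes of 0.17 at day 7 and 0.50 at day 14, SE 0.17, limma adjusted p = 0.572 and 0.0749). The day 7 value turned to -0.12 after rescaling to the same sum. Under centring and quantile normalization Eef1d was called higher at day 14 and averaged.

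Eef1e1, a scaffold protein of the multi-synthetase complex that carries an elongation factor name, is not on the TOP list. Its RPKM was 7.71 and 6.15 in the day 7 controls and 12.04 and 10.8 with LAMZ at day 7. At day 14 Eef1e1 was at 4.87 and 4.501 without and 11.3 and 7.74 with LAMZ. The LAMZ libraries of each day lay above the controls of both days. The change was 0.65 at day 7 (limma adjusted p = 0.0534) and 0.87 at day 14 (adjusted p = 0.0117), each with an SE of 0.18, and 0.76 ± 0.13 (SE, limma adjusted p = 0.00349) averaged. Eef1e1 lost its day 14 call without day 14 control replicate 2 and day 14 LAMZ replicate 1, left out singly (limma adjusted p from 0.0636 to 0.0693). Of the 5 elongation factors on the TOP list, 4 were higher averaged, 1 at day 7 and 4 at day 14. With Eef1e1 counted in, 5 of 6 were higher averaged, 1 at day 7 and 5 at day 14. Of all tested genes 9.12%, 4.35% and 6.96% were. Rescaled to equal sums, the counts with Eef1e1 were 3, 0 (0 at an unadjusted p under 0.05) and 3, against 4.47%, 2.49% and 3.78%. Under centring on the median gene they were 6, 5 and 6, against 16.1%, 6.85% and 12.8%. Eef1a2, the form of eEF1A found in muscle and nerve, was not tested: it was above 0 in 2 of 8 libraries, at up to 0.165 RPKM.

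Among the TOP factors of initiation, Eif4b (chromosome 15, 102073773 to 102097173) encodes the protein that stimulates the helicase eIF4A. Its RPKM was 36.1 and 36.1 in the day 7 controls and 55.9 and 53.7 with LAMZ at day 7. At day 14 Eif4b was at 34.4 and 38.4 without and 64.5 and 58.3 with LAMZ. The 4 control libraries were close to each other and all 4 LAMZ libraries lay above them. The change was 0.59 at day 7 (limma adjusted p = 0.0149) and 0.74 at day 14 (adjusted p = 0.00316), each with an SE of 0.11, and 0.66 ± 0.081 (SE, limma adjusted p = 7.4e-04) averaged. Eif4b lost its day 7 call without day 7 control replicate 1, day 7 LAMZ replicate 1 and day 7 LAMZ replicate 2, left out singly (limma adjusted p from 0.0522 to 0.106) and after rescaling to the same sum, whereas the other calls held in each of these settings.

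Eif3h, a subunit of the eIF3 scaffold on the small ribosomal subunit, had an RPKM of 34.1 and 30.4 in the day 7 controls and 46.2 and 43.8 with LAMZ at day 7. At day 14 Eif3h was at 40.6 and 38.5 without and 64.5 and 57.2 with LAMZ. LAMZ libraries were above controls on each day. Eif3h changed by 0.47 at day 7 (limma adjusted p = 0.0390) and 0.61 at day 14 (adjusted p = 0.00882), each with an SE of 0.12, and 0.54 ± 0.084 (SE, limma adjusted p = 0.00237) averaged. Eif3h lost its day 7 call without any one of the 8 libraries (limma adjusted p from 0.0553 to 0.198) and the day 14 call without day 14 control replicate 2 and day 14 LAMZ replicate 1, left out singly (limma adjusted p from 0.0514 to 0.0628). All its calls were lost after rescaling to the same sum. Eif3f, whose window holds the longest run of those shown (15 bases), had a lower RPKM of 6.79 and 6.59 in the day 7 controls and 8.60 and 7.70 with LAMZ at day 7. At day 14 Eif3f was at 6.63 and 7.35 without and 10.4 and 8.57 with LAMZ. All LAMZ libraries exceeded all controls. On neither day did Eif3f pass on the deposited scale (changes of 0.25 at day 7 and 0.39 at day 14, SE 0.13, limma adjusted p = 0.263 and 0.0669). Its averaged change of 0.32 ± 0.093 (SE, limma adjusted p = 0.0344) did, and that call was lost without any one library other than day 14 LAMZ replicate 2 (limma adjusted p from 0.0555 to 0.117) and under the scalings to the same sum and to the same sum over protein-coding genes.

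Eif3e, another eIF3 subunit, was at 48.9 and 41.2 in the day 7 controls and 63.4 and 56.2 with LAMZ at day 7. At day 14 Eif3e was at 45.4 and 56.0 without and 63.8 and 46.0 with LAMZ. The LAMZ libraries were above the controls at day 7 and overlapped with them at day 14. Its change was 0.40 at day 7 (limma adjusted p = 0.204) and 0.10 at day 14 (adjusted p = 0.731), each with an SE of 0.19, passing on neither day, and at day 14 it turned to -0.26 after rescaling to the same sum. Averaged, Eif3e changed by 0.25 ± 0.13 (SE, limma adjusted p = 0.191) and did not pass on the deposited scale. Eif3a, the largest subunit of eIF3, had an RPKM of 25.4 and 25.8 in the day 7 controls and 24.7 and 26.8 with LAMZ at day 7. At day 14 Eif3a was at 17.7 and 25.1 without and 28.0 and 20.7 with LAMZ, with groups that overlapped on both days. The change was 0.0049 at day 7 (limma adjusted p = 0.993) and 0.18 at day 14 (adjusted p = 0.536), each with an SE of 0.19, and -0.29 and -0.17 after rescaling to the same sum. Under centring 9 of the 10 TOP factors were called higher averaged, so either Eif3e or Eif3a, but not both, was among them. The plot of TOP factors by library shows all 10.

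**Figure D2:**
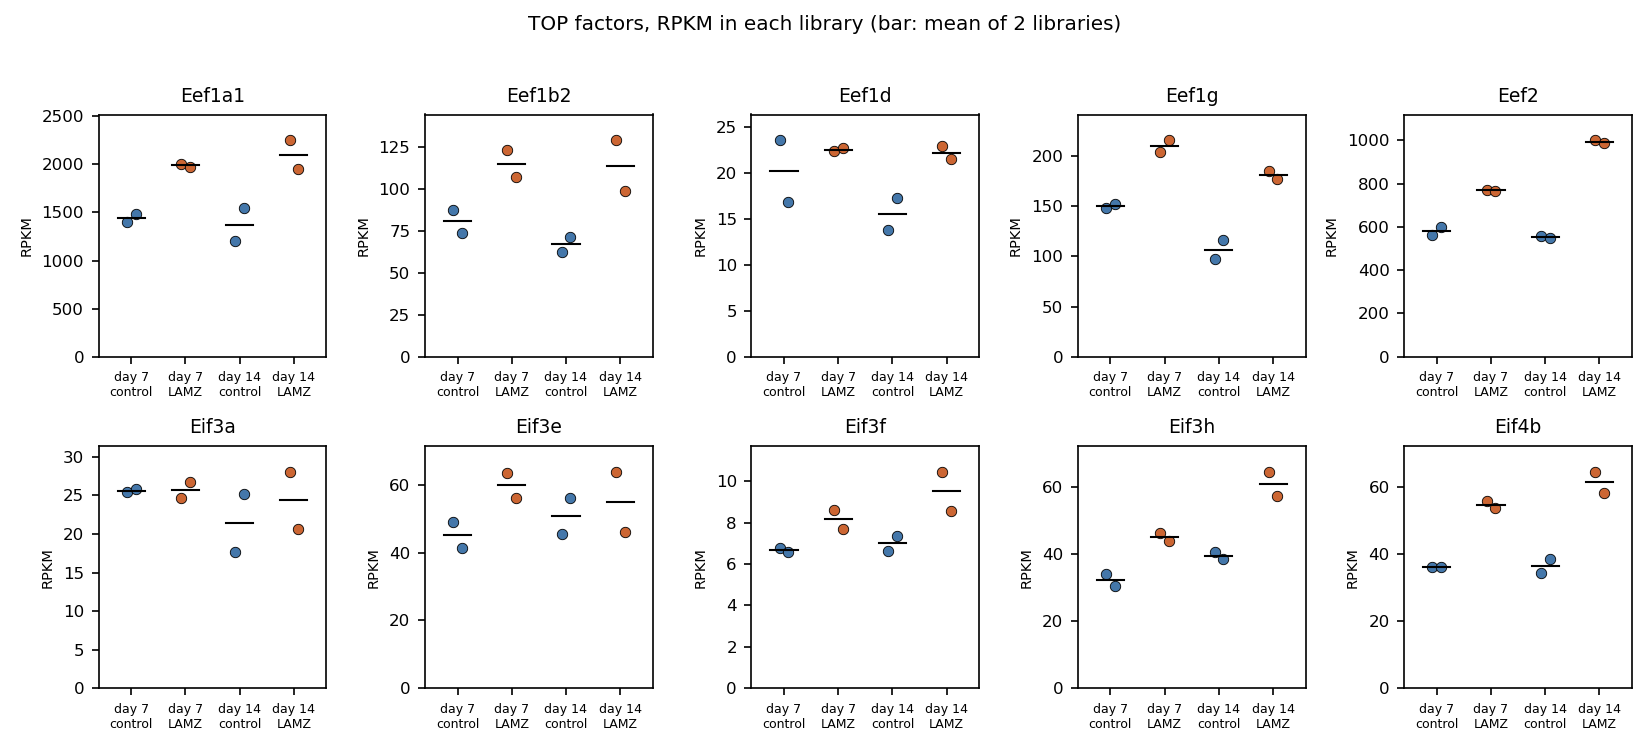
RPKM (vertical axis, from 0) of the 10 TOP factors in each of the 8 libraries, by group, with control in blue, LAMZ in orange and a bar at the mean of the 2 libraries. The LAMZ points of Eef2 and Eif4b lie above all control points, while those of Eif3a overlap with the control points on both days.

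On the deposited scale the median change of the TOP factors lay near that of the ribosomal proteins. The median change of the 10 TOP factors was 0.43 at day 7 and 0.61 at day 14, that of 78 cytosolic ribosomal proteins 0.45 and 0.65, and that of the 52 other tested members 0.042 and 0.18. Within the TOP list, the 5 elongation genes had medians of 0.46 and 0.75, and the 4 eIF3 genes 0.33 and 0.29. The 10 eIF3 members outside the TOP list had medians of 0.12 and 0.36, so at day 14 the TOP genes of eIF3 did not stand above them. For the 22 cytosolic aminoacyl-tRNA synthetases, counted below and not on the TOP list, the medians were 0.19 and 0.78. Of the TOP factors, 3, 6 and 7 of 10 were higher at day 7, at day 14 and averaged, and of the ribosomal proteins 19, 50 and 69 of 78, where 4.35%, 6.96% and 9.12% of all tested genes were. Without each library in turn the TOP counts in limma ranged over 0 to 2 (unadjusted 4 to 7) at day 7, 3 to 7 at day 14 and 6 to 7 averaged. With the same sum of RPKM these counts in limma were 0 (unadjusted 0), 3 and 3 of 10 and 3, 17 and 21 of 78, against 2.49%, 3.78% and 4.47% of all tested genes. Quantile normalization left 2, 7 and 7 of 10 and 5, 18 and 29 of 78, against 5.43%, 10.2% and 13.5%. Centring on the median gene gave 6, 8 and 9 of 10 and 45, 69 and 75 of 78, against 6.85%, 12.8% and 16.1%. On the deposited scale in limma 0 genes of either list were lower, also 0 at an unadjusted p under 0.05. All 10 TOP factors and all 78 ribosomal proteins had a change above 0 on both days, against 39.9% and 35.2% of all tested genes. With the same sum of RPKM, 7 and 8 of the 10 were above 0 at day 7 and day 14, as were 66 and 73 of the 78. Of the 12514 tested genes 2348 and 2091 then were. Under quantile normalization 68 and 77 of the 78 were above 0, beside 6491 and 6587 of the 12514. Of the other members, 2, 11 and 12 of 52 were higher in these comparisons on the deposited scale (3.85%, 21.2% and 23.1%), and 0 (unadjusted 0), 4 and 3 higher in limma with the same sum, beside 7, 8 and 14 lower. These lower calls made up 13.5%, 15.4% and 26.9% of the other members, against 26.2%, 42.5% and 53.1% of all tested genes. Of the 52, 31 and 38 were above 0 at day 7 and day 14, which became 10 and 17 after rescaling to the same sum.

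Relative to the median of all tested genes, the TOP factors stood 0.51 higher at day 7 and 0.76 at day 14, and the ribosomal proteins 0.53 and 0.79. After rescaling to the same sum these differences were 0.44 and 0.68 for the TOP factors and 0.46 and 0.71 for the ribosomal proteins. Under quantile normalization, which forces the highest values of all libraries to be alike, they were 0.28 and 0.51 for the TOP factors and 0.21 and 0.33 for the ribosomal proteins. In single libraries, the median log2(RPKM + 1) of the TOP factors was 5.43 and 5.31 in the day 7 controls, 5.92 and 5.81 with LAMZ at day 7, 5.46 and 5.57 in the day 14 controls and 6.03 and 5.88 with LAMZ at day 14. That of the ribosomal proteins was 7.45 and 7.35 in the day 7 controls, 7.78 and 7.81 with LAMZ at day 7, 7.17 and 7.35 in the day 14 controls and 8.04 and 7.94 with LAMZ at day 14. For both lists the LAMZ libraries of a day stood above its controls, on the deposited scale.

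**Figure D3:**
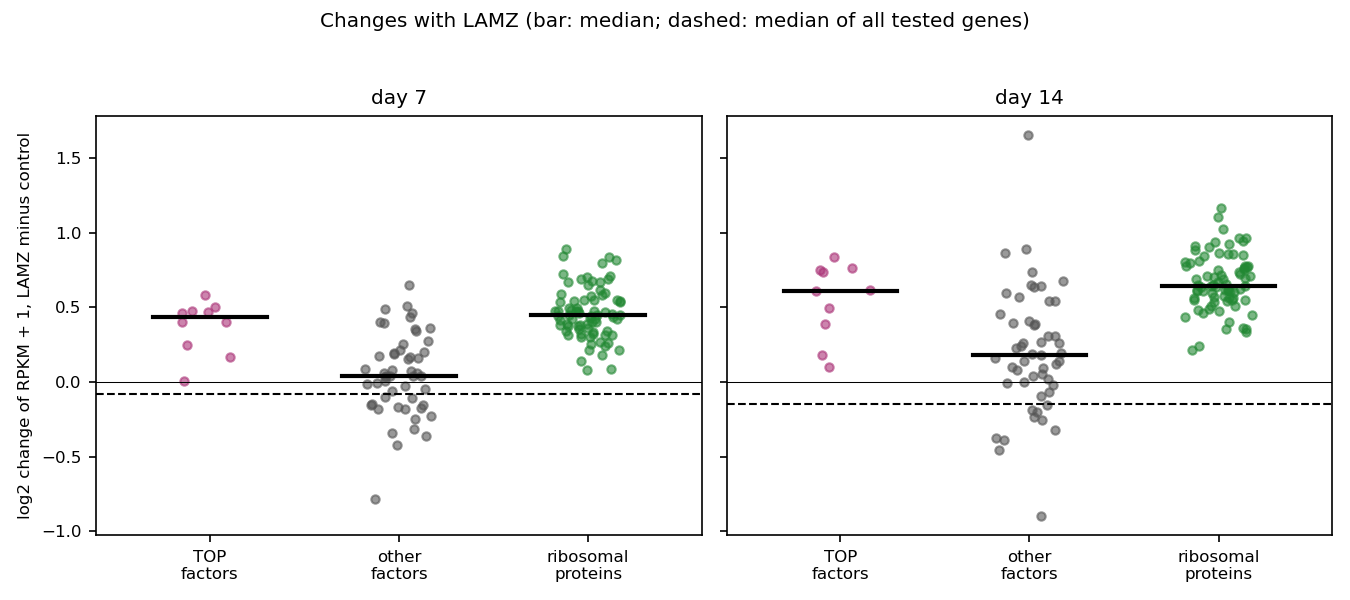
Change with LAMZ (difference of log2(RPKM + 1), vertical axis) of each TOP factor, each other factor and each ribosomal protein at day 7 and day 14, with 1 point a gene, a bar at the median of the list and a dashed line at the median of all tested genes. The medians of TOP factors (0.43 and 0.61) and ribosomal proteins (0.45 and 0.65) stand above that of the other factors (0.042 and 0.18, which become -0.22 and -0.13 after rescaling to the same sum).

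Of 3 tested genes for a kinase and methyltransferases of elongation factors, 1, 2 and 2 were higher at day 7, at day 14 and averaged. Of all tested genes 4.35%, 6.96% and 9.12% were. With the same sum of RPKM 0 (unadjusted 0), 1 and 1 were higher, against 2.49%, 3.78% and 4.47%. Lower were then 0 (unadjusted 0), 1 and 1, against 26.2%, 42.5% and 53.1%. Eef2k, the kinase that phosphorylates and halts eEF2, had an RPKM of 9.02 and 8.30 in the day 7 controls and 12.4 and 12.7 with LAMZ at day 7. At day 14 Eef2k was at 9.20 and 9.35 without and 12.8 and 15.2 with LAMZ. All 4 LAMZ libraries lay above all 4 control libraries. Eef2k changed by 0.49 at day 7 (limma adjusted p = 0.0349) and 0.54 at day 14 (adjusted p = 0.0150), each with an SE of 0.12, and 0.52 ± 0.085 (SE, limma adjusted p = 0.00309) averaged. Eef2k lost its day 7 call without any one library other than day 14 LAMZ replicate 1 and day 14 LAMZ replicate 2 (limma adjusted p from 0.0539 to 0.150). Eef2k lost its day 14 call without day 14 control replicate 1, day 14 control replicate 2 and day 14 LAMZ replicate 2, left out singly (limma adjusted p from 0.0610 to 0.1002), and all 3 calls after rescaling to the same sum. Eef2kmt, a methyltransferase of eEF2, had an RPKM of 5.61 and 5.45 in the day 7 controls and 8.85 and 7.25 with LAMZ at day 7. At day 14 Eef2kmt was at 5.41 and 4.59 without and 10.0 and 8.04 with LAMZ. All LAMZ libraries were above all controls. Eef2kmt changed by 0.47 at day 7 (limma adjusted p = 0.0839) and 0.74 at day 14 (adjusted p = 0.0105), each with an SE of 0.15, and 0.60 ± 0.11 (SE, limma adjusted p = 0.00426) averaged. Its day 14 call was lost without day 14 control replicate 2 and day 14 LAMZ replicate 1, left out singly (limma adjusted p from 0.0688 to 0.0711). Its exons overlap Alg1 on the other strand over 17.6% of their length, and since the strand of the libraries is not given in the sources used here, reads of the overlap cannot be told apart.

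Eef1akmt1, a lysine methyltransferase of eEF1A and the member of this role with the highest mean level, was at 15.5 and 19.0 in the day 7 controls and 16.3 and 20.7 with LAMZ at day 7. At day 14 Eef1akmt1 was at 11.4 and 14.0 without and 8.41 and 9.56 with LAMZ. Its groups overlapped at day 7, and at day 14 the LAMZ libraries lay below the controls. The values were 0.089 at day 7 (limma adjusted p = 0.782) and -0.45 at day 14 (adjusted p = 0.0911), each with an SE of 0.17, and neither passed, but with the same sum of RPKM it was called lower at day 14 and averaged.

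Eif4ebp1 (chromosome 8, 27260329 to 27276674) had the largest change of all members at day 14. It encodes a binding protein that keeps the cap-binding factor eIF4E from assembling the initiation complex until mTOR phosphorylates it, and its gene is also a known target of ATF4. Its RPKM was 14.9 and 13.9 in the day 7 controls and 18.04 and 19.0 with LAMZ at day 7. At day 14 Eif4ebp1 was at 18.7 and 18.8 without and 63.9 and 58.6 with LAMZ. The control libraries of both days and the day 7 LAMZ libraries spanned 13.9 to 19.0, and both day 14 LAMZ libraries lay above that range. The change was 0.34 at day 7 (limma adjusted p = 0.0798) and 1.66 at day 14 (adjusted p = 6.3e-05), each with an SE of 0.11, and 1.00 ± 0.077 (SE, limma adjusted p = 7.8e-05) averaged. Day 14 and averaged calls held without every library in turn and under all 4 other scalings. At day 7, 1 of the 3 tested binding inhibitors of eIF4E was called higher under centring and under quantile normalization. The shares of all tested genes were 6.85% and 5.43%.

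The LAMZ effect on Eif4ebp1 differed between days by 1.31 ± 0.15 (SE, limma adjusted p = 0.0257), the only member for which this test passed on the deposited scale, against 0.623% of all tested genes. That call was lost without any 1 of the 8 libraries, when 0 members passed in limma (8 to 13 at an unadjusted p under 0.05). The next lowest adjusted p of this test among the members was 0.0897 (Eif3c), so for the others a call on 1 day and not on the other does not show that the days differ. Eif4ebp2, a relative with the same role, was at 11.8 to 15.1 RPKM with overlapping groups and did not pass (averaged change -0.036 ± 0.098, SE, limma adjusted p = 0.815). Eif4enif1, which carries eIF4E into the nucleus, was at 4.85 to 6.70 RPKM and did not pass either (averaged change -0.19 ± 0.10, SE, limma adjusted p = 0.212) on the deposited scale. Both were called lower at day 14 and averaged with the same sum of RPKM. Eif4ebp3 was not tested, with values above 0 in 2 of 8 libraries and no more than 0.776 RPKM.

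**Figure D4:**
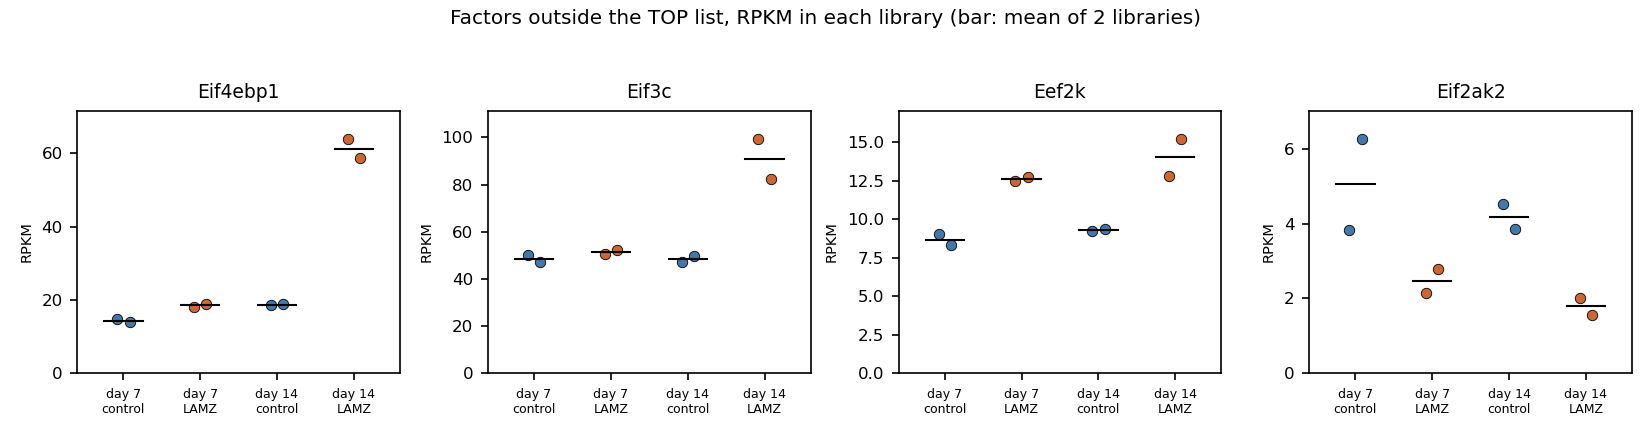
RPKM (vertical axis, from 0) of 4 factors outside the TOP list in each of the 8 libraries, with control in blue, LAMZ in orange and a bar at the mean of the 2 libraries. Eif4ebp1 and Eif3c lie highest in the day 14 LAMZ libraries, Eef2k lies higher and Eif2ak2 lower in all LAMZ libraries than in any control.

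In the cap-binding complex, 3 of 10 tested members were higher and 1 lower averaged over both days, against 9.12% and 20.3% of all tested genes. This split became 1 higher and 4 lower after rescaling to the same sum (all tested genes 4.47% and 53.1%). In limma under centring it was 4 higher and 0 lower (unadjusted 6 and 1), against 16.1% and 12.3% of all tested genes. Besides Eif4b, those called on the deposited scale were Eif4a1, Eif4g2 and Eif4g3. Eif4a1, the helicase that unwinds the leader of the mRNA and the most abundant member of the complex, had an RPKM of 176 and 149.8 in the day 7 controls and 188 and 204 with LAMZ at day 7. At day 14 Eif4a1 was at 96.8 and 124 without and 146 and 143 with LAMZ. LAMZ libraries lay above controls on each day, but neither day passed (changes of 0.27 at day 7 and 0.40 at day 14, SE 0.15, limma adjusted p = 0.287 and 0.0947). The averaged change of 0.33 ± 0.11 (SE, limma adjusted p = 0.0475) was lost as a call without any one library other than day 7 control replicate 1 and day 14 control replicate 2 (limma adjusted p from 0.0944 to 0.139), after rescaling to the same sum and under quantile normalization. Its pseudogenes make its reads uncertain.

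Eif4g3, a form of the scaffold that joins cap, helicase and ribosome, fell averaged over both days. It had an RPKM of 8.77 and 9.40 in the day 7 controls and 6.27 and 6.80 with LAMZ at day 7. At day 14 Eif4g3 was at 7.29 and 8.08 without and 5.21 and 6.24 with LAMZ. All LAMZ libraries were below all controls. Its change was -0.42 at day 7 (limma adjusted p = 0.0687) and -0.37 at day 14 (adjusted p = 0.0698), each with an SE of 0.13, and -0.40 ± 0.089 (SE, limma adjusted p = 0.0126) averaged. Eif4g3 lost its averaged call without day 7 LAMZ replicate 1 (limma adjusted p = 0.0525) and when libraries were centred on the median gene. Eif4g2, a relative that lacks the site for eIF4E and serves cap-independent initiation, is named here after its values were seen. It was at 57.9 and 50.0 in the day 7 controls and 58.5 and 62.1 with LAMZ at day 7. At day 14 Eif4g2 was at 41.0 and 48.7 without and 63.6 and 59.7 with LAMZ. All LAMZ libraries were above all controls. Eif4g2 changed by 0.16 at day 7 (limma adjusted p = 0.481) and 0.46 at day 14 (adjusted p = 0.0414), each with an SE of 0.13, and 0.31 ± 0.093 (SE, limma adjusted p = 0.0406) averaged. Eif4g2 lost its averaged call without any one library other than day 7 control replicate 1 and day 14 control replicate 2 (limma adjusted p from 0.0802 to 0.121). Eif4g2 lost its day 14 call without any one library other than day 7 control replicate 1, day 7 control replicate 2 and day 14 control replicate 2 (limma adjusted p from 0.0708 to 0.173). Both were also lost after rescaling to the same sum, where the averaged change was -0.021.

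The other tested members of the complex did not pass in any LAMZ comparison on the deposited scale: Eif4a2, Eif4g1, Eif4h, the cap-binding protein Eif4e and its relatives Eif4e2 and Eif4e3. Their averaged changes lay between -0.12 and 0.35, and Eif4g1, Eif4h and Eif4e were called lower averaged with the same sum of RPKM. The 4 members of the complex called higher averaged under centring included a gene besides Eif4b, Eif4a1 and Eif4g2. Eif4e itself was at 4.60 to 7.95 RPKM, under Eif4a1 and Eif4g1 (lowest 41.1) in every library on this scale per length. Eif4e1b, a form found in oocytes, was above 0 in 2 of 8 libraries at no more than 0.104 RPKM and was not tested.

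Of the 14 subunits and partners of eIF3, 6 were higher and 0 lower averaged in limma (6 and 0 at an unadjusted p under 0.05), against 9.12% and 20.3% of all tested genes. Centring on the median gene gave 9 higher averaged (all tested genes 16.1%). Under equal sums the eIF3 split was 0 higher and 0 lower (unadjusted 1 and 1), against 4.47% and 53.1% of all tested genes. Of the 14, 6 were then above 0 averaged, beside 1877 of the 12514 tested genes. On the deposited scale 14 were, against 35.0% of all tested genes. Outside the TOP list, Eif3c, a core subunit that contacts eIF1 and eIF5, had the largest averaged change. Its RPKM was 50.1 and 47.2 in the day 7 controls and 50.4 and 52.3 with LAMZ at day 7. At day 14 Eif3c was at 47.2 and 49.7 without and 99.4 and 82.4 with LAMZ. The day 7 libraries of both treatments and the day 14 controls lay between 47.2 and 52.3, and both day 14 LAMZ libraries were higher. Eif3c changed by 0.077 at day 7 (limma adjusted p = 0.739) and 0.89 at day 14 (adjusted p = 0.00211), each with an SE of 0.12. The difference of the effect between days was 0.81 ± 0.18 (SE, limma adjusted p = 0.0897) and did not pass. The averaged change was 0.48 ± 0.088 (SE, limma adjusted p = 0.00488), a call that was lost after rescaling to the same sum, where the day 7 change was -0.22. The day 14 call held without every library in turn and under all 4 other scalings.

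Eif3d, the subunit that can bind the cap and the most abundant of eIF3, had an RPKM of 61.8 and 55.2 in the day 7 controls and 64.6 and 66.7 with LAMZ at day 7. At day 14 Eif3d was at 38.8 and 54.9 without and 75.5 and 65.6 with LAMZ. All 4 LAMZ libraries were above all 4 controls. Eif3d changed by 0.17 at day 7 (limma adjusted p = 0.580) and 0.60 at day 14 (adjusted p = 0.0402), each with an SE of 0.17, and 0.38 ± 0.12 (SE, limma adjusted p = 0.0475) averaged. Without each library in turn its change ranged over 0.086 to 0.246 at day 7 and 0.353 to 0.843 at day 14. Eif3d lost its averaged call without any one library other than day 14 control replicate 2 (limma adjusted p from 0.0645 to 0.142). Eif3d lost its day 14 call without any one library other than day 7 control replicate 1, day 7 control replicate 2 and day 14 control replicate 2 (limma adjusted p from 0.0701 to 0.187), and both after rescaling to the same sum, where the day 7 change was -0.14. Its exons overlap an antisense gene, Gm17638, over 43.3% of their length. Eif3g, an RNA-binding subunit, was at 27.1 and 21.4 in the day 7 controls and 24.3 and 25.3 with LAMZ at day 7. At day 14 Eif3g was at 19.99 and 17.8 without and 30.6 and 29.9 with LAMZ. Its groups overlapped at day 7 and not at day 14. Eif3g changed by 0.039 at day 7 (limma adjusted p = 0.891) and 0.65 at day 14 (adjusted p = 0.0116), each with an SE of 0.14, and 0.35 ± 0.096 (SE, limma adjusted p = 0.0301) averaged. Eif3g lost its averaged call without any one library other than day 7 control replicate 1 and day 14 control replicate 1 (limma adjusted p from 0.0618 to 0.0906). Eif3g lost its day 14 call without day 14 control replicate 2, day 14 LAMZ replicate 1 and day 14 LAMZ replicate 2, left out singly (limma adjusted p from 0.0596 to 0.0709), and both after rescaling to the same sum, where the day 7 change was -0.25.

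Eif3i, which like Eif3b and Eif3g belongs to the module near the mRNA entry site, had an RPKM of 24.3 and 26.8 in the day 7 controls and 30.5 and 38.1 with LAMZ at day 7. At day 14 Eif3i was at 20.1 and 26.9 without and 35.7 and 32.9 with LAMZ. All LAMZ libraries lay above all controls. Eif3i changed by 0.40 at day 7 (limma adjusted p = 0.166) and 0.54 at day 14 (adjusted p = 0.0531), each with an SE of 0.17. Only the averaged change passed, 0.47 ± 0.12 (SE, limma adjusted p = 0.0203), and this call was lost without day 7 control replicate 1, day 7 LAMZ replicate 2, day 14 control replicate 1 and day 14 LAMZ replicate 1, left out singly (limma adjusted p from 0.0542 to 0.0746) and after rescaling to the same sum. Eif3b, Eif3k, Eif3l, Eif3m and the loosely bound Eif3j1 and Eif3j2 did not pass on the deposited scale, with averaged changes of 0.047 to 0.19. Of these, Eif3b was called lower at day 7 with the same sum, and Eif3k and Eif3l higher averaged under centring. Eif3j1 and Eif3j2 are near copies of each other, so the split of reads between them is uncertain.

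In start codon recognition, Eif1, which guards the accuracy of scanning, was the most abundant of 7 tested members and the only one to pass on the deposited scale, at day 14. It had an RPKM of 20.4 and 19.0 in the day 7 controls and 21.5 and 19.7 with LAMZ at day 7. At day 14 Eif1 was at 19.1 and 25.8 without and 41.4 and 31.6 with LAMZ. Groups overlapped at day 7 and not at day 14. Eif1 changed by 0.060 at day 7 (limma adjusted p = 0.868) and 0.68 at day 14 (adjusted p = 0.0282), each with an SE of 0.18. The difference between days did not pass (0.62 ± 0.25, SE, limma adjusted p = 0.278). Eif1 lost its day 14 call without day 7 LAMZ replicate 1, day 7 LAMZ replicate 2, day 14 control replicate 1 and day 14 LAMZ replicate 1, left out singly (limma adjusted p from 0.0503 to 0.159) and after rescaling to the same sum, where the day 7 change was -0.23. Pseudogenes make its reads uncertain. Eif1a, Eif1ax, Eif1ad, Eif1b, Eif5 and Eif5b did not pass in any LAMZ comparison on that scale (averaged changes of -0.26 to 0.24). Eif5b, the GTPase that joins the ribosomal subunits, was low at 0.672 to 1.74 RPKM. All its LAMZ libraries lay below all controls, but its averaged change of -0.26 ± 0.15 (SE, limma adjusted p = 0.226) passed only with the same sum of RPKM, as did that of Eif1b. Centring called Eif1, Eif1a and Eif5 higher averaged and Eif1 and Eif1ad at day 14, and quantile normalization Eif1 and Eif5 averaged and Eif1 and Eif1ad at day 14. Exons of Eif5b overlap Rev1 on the other strand over 16.8% of their length.

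The factor eIF2 brings the initiator tRNA, and its phosphorylation by stress kinases slows initiation. Eif2s2, its beta subunit, had an RPKM of 10.5 and 9.79 in the day 7 controls and 12.9 and 14.5 with LAMZ at day 7. At day 14 Eif2s2 was at 12.1 and 12.8 without and 21.1 and 18.7 with LAMZ. All LAMZ libraries lay above all control libraries. Eif2s2 changed by 0.40 at day 7 (limma adjusted p = 0.0688) and 0.64 at day 14 (adjusted p = 0.00758), each with an SE of 0.12, and 0.52 ± 0.085 (SE, limma adjusted p = 0.00304) averaged. Eif2s2 lost its day 14 call without day 14 LAMZ replicate 1 (limma adjusted p = 0.0547), and both calls after rescaling to the same sum. Eif2a, a separate protein that can deliver the initiator tRNA under stress, was at 4.60 and 4.77 in the day 7 controls and 6.63 and 7.59 with LAMZ at day 7. At day 14 Eif2a was at 4.505 and 5.06 without and 5.69 and 5.39 with LAMZ. All LAMZ libraries were above all controls. Eif2a changed by 0.51 at day 7 (limma adjusted p = 0.0301) and 0.18 at day 14 (adjusted p = 0.324), each with an SE of 0.12, and 0.35 ± 0.085 (SE, limma adjusted p = 0.0181) averaged. The difference between days did not pass (-0.33 ± 0.17, SE, limma adjusted p = 0.370). Eif2a lost its day 7 call without any one library other than day 14 control replicate 1 and day 14 control replicate 2 (limma adjusted p from 0.0532 to 0.163). Eif2a lost its averaged call without day 7 LAMZ replicate 2, day 14 control replicate 1 and day 14 LAMZ replicate 1, left out singly (limma adjusted p from 0.0554 to 0.0693), and both after rescaling to the same sum, where the day 14 change was -0.13.

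Eif2s3x, the X-linked gamma subunit and the most abundant gene of eIF2, was at 28.2 and 24.8 in the day 7 controls and 28.0 and 33.2 with LAMZ at day 7. At day 14 Eif2s3x was at 23.6 and 27.7 without and 28.2 and 24.6 with LAMZ. Its groups overlapped on both days and its averaged change was 0.12 ± 0.10 (SE, limma adjusted p = 0.417), or -0.20 after rescaling to the same sum. The Y-linked copy Eif2s3y, which can share reads with it, was at 0.627 to 2.49 RPKM and did not pass (averaged change 0.030 ± 0.20, SE, limma adjusted p = 0.928). Eif2s1, the alpha subunit that is phosphorylated, did not pass either (changes of 0.26 at day 7 and 0.27 at day 14, SE 0.15, limma adjusted p = 0.316 and 0.244), although its LAMZ libraries lay above the controls on each day. The changes of Eif2s1 turned to -0.021 and -0.056 with the same sum, while centring called it higher at day 14 and averaged and quantile normalization averaged. Eif2d did not pass on the deposited scale (averaged 0.083 ± 0.12, SE, limma adjusted p = 0.660). Under centring 4 of the 6 tested genes of eIF2 and its relatives were called higher averaged, against 16.1% of all tested genes. They included a gene besides Eif2s2, Eif2a and Eif2s1.

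Of the kinases of eIF2, Eif2ak2 (chromosome 17, 78852564 to 78882573), the interferon-induced kinase PKR that senses double-stranded RNA, was the only member called lower on both days on the deposited scale. Eif2ak3 and Eif4g3 were too with the same sum of RPKM. The RPKM of Eif2ak2 was 3.84 and 6.27 in the day 7 controls and 2.16 and 2.78 with LAMZ at day 7. At day 14 Eif2ak2 was at 4.52 and 3.85 without and 2.01 and 1.56 with LAMZ. All 4 LAMZ libraries lay below all 4 control libraries. Eif2ak2 changed by -0.78 at day 7 (limma adjusted p = 0.0481) and -0.90 at day 14 (adjusted p = 0.0187), each with an SE of 0.21, and -0.84 ± 0.15 (SE, limma adjusted p = 0.00431) averaged. Without each library in turn its day 7 change ranged over -1.07 to -0.487. The averaged call held without every library and under all 4 other scalings. Eif2ak2 lost its day 7 call without any one library other than day 7 control replicate 1 (limma adjusted p from 0.0710 to 0.239). Eif2ak2 lost its day 14 call without day 14 control replicate 1, day 14 control replicate 2, day 14 LAMZ replicate 1 and day 14 LAMZ replicate 2, left out singly (limma adjusted p from 0.0522 to 0.112), and both under centring on the median gene and under quantile normalization. PKR is expressed by many cell types, macrophages among them, and the macrophage markers, whose sums are given above, were lower in the same LAMZ libraries. Their part in this result was not tested.

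Eif2ak3 (PERK, the kinase of the endoplasmic reticulum) had the highest mean RPKM of the 4 kinases, at 11.1 and 11.9 in the day 7 controls and 9.98 and 10.2 with LAMZ at day 7. At day 14 Eif2ak3 was at 8.20 and 8.11 without and 6.82 and 6.72 with LAMZ. LAMZ libraries were below controls on each day, but the change did not pass on the deposited scale (changes of -0.17 at day 7 and -0.24 at day 14, SE 0.11, limma adjusted p = 0.346 and 0.146). Eif2ak1, the heme-regulated kinase, and Eif2ak4 (GCN2, which senses uncharged tRNA) did not pass, with averaged changes of -0.21 ± 0.10 (SE, limma adjusted p = 0.168) and -0.16 ± 0.13 (SE, limma adjusted p = 0.423). All 4 kinases had a change under 0 on both days on the deposited scale, where only 39.9% and 35.2% of all tested genes were above 0. Under centring on the median gene and under quantile normalization 2 of 4 were above 0 at day 7, beside 6718 and 6491 of the 12514 tested genes. At equal sums of RPKM 2, 3 and 4 of 4 were called lower at day 7, at day 14 and averaged, and with the same sum over protein-coding genes 1, 1 and 3. Of all tested genes the first of these scalings called 26.2%, 42.5% and 53.1% lower and the second 11.6%, 23.7% and 28.2%.

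The exchange factor eIF2B, the target of phosphorylated eIF2, has 5 subunits, and Eif2b5, its catalytic subunit, was the most abundant at 14.1 and 11.97 in the day 7 controls and 14.0 and 16.3 with LAMZ at day 7. At day 14 Eif2b5 was at 9.63 and 13.7 without and 16.4 and 14.4 with LAMZ. The groups overlapped at day 7 only, and the change was 0.20 at day 7 (limma adjusted p = 0.521) and 0.38 at day 14 (adjusted p = 0.161), each with an SE of 0.18. Eif2b2 passed at day 14 and is named after its values were seen. It had an RPKM of 13.5 and 11.6 in the day 7 controls and 11.7 and 10.8 with LAMZ at day 7. At day 14 Eif2b2 was at 9.58 and 8.68 without and 15.9 and 12.4 with LAMZ. Groups overlapped at day 7, and LAMZ lay above control at day 14. Eif2b2 changed by -0.15 at day 7 (limma adjusted p = 0.569) and 0.57 at day 14 (adjusted p = 0.0269), each with an SE of 0.15. The difference between days was 0.72 ± 0.21 (SE, limma adjusted p = 0.163) and did not pass. Eif2b2 lost its day 14 call without day 14 control replicate 1, day 14 control replicate 2 and day 14 LAMZ replicate 1, left out singly (limma adjusted p from 0.0673 to 0.150) and after rescaling to the same sum. Eif2b1, Eif2b3 and Eif2b4 did not pass on the deposited scale (averaged changes of -0.066 to 0.13). Under centring 2 of the 5 subunits were called higher at day 14 and 2 averaged, against 12.8% and 16.1% of all tested genes. Quantile normalization called 2 and 1, against 10.2% and 13.5%.

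Factors with roles beside initiation did not pass in any LAMZ comparison on the deposited scale. Eif4a3, the helicase of the exon junction complex, was at 35.6 and 31.8 in the day 7 controls and 27.5 and 24.6 with LAMZ at day 7. At day 14 Eif4a3 was at 21.1 and 24.0 without and 28.1 and 26.2 with LAMZ. The LAMZ libraries lay below the controls at day 7 and above them at day 14. The values were -0.36 at day 7 (limma adjusted p = 0.104) and 0.26 at day 14 (adjusted p = 0.174), each with an SE of 0.13, with a difference between days of 0.62 ± 0.18 (SE, limma adjusted p = 0.159). Eif5a, the hypusine-carrying protein that helps ribosomes past stalls, was at 142 and 128 in the day 7 controls and 129 and 149 with LAMZ at day 7. At day 14 Eif5a was at 81.1 and 109 without and 117 and 115 with LAMZ. Its groups overlapped at day 7 and not at day 14, and the change was 0.039 at day 7 (limma adjusted p = 0.912) and 0.31 at day 14 (adjusted p = 0.211), each with an SE of 0.16. The averaged change of 0.17 turned to -0.16 after rescaling to the same sum. Eif5a2 (averaged change -0.053 ± 0.16, SE, limma adjusted p = 0.838) and Eif6, which keeps free large subunits apart from small ones (averaged change 0.082 ± 0.098, SE, limma adjusted p = 0.574), did not pass. Eif4a3 was called lower at day 7 and averaged with the same sum, and Eif6 at day 7, while at day 14 centring called Eif4a3, Eif5a and Eif6 higher and quantile normalization Eif6. Eif2c5, annotated as a long noncoding RNA on chromosome X and taken in by its symbol alone, was listed at 0 in all 8 libraries and was not tested.

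The 4 untested members were at or under 3 estimated reads in every library, where their floors of 3 reads stood between 0.228 and 1.16 RPKM by gene and library, so a difference in them was not detectable at this depth. Among the tested members, the lowest estimate was 14.0 reads in a library (Eif2s3y). Floors and read estimates cover counting error only.

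The time in culture was compared within each treatment. From day 7 to day 14, 0 members were higher in control cells by limma (2 at an unadjusted p under 0.05) against 2.46% of all tested genes, and 1 was lower, Eif4a3 (-0.56 ± 0.13, SE, limma adjusted p = 0.0466), against 2.40%. That call was lost without any 1 of the 8 libraries, when 0 were lower in limma (8 to 20 at an unadjusted p under 0.05). On the deposited scale 16 members (25.8%) were lower at an unadjusted p under 0.05, against 12.3% of all tested genes. The median change of the 62 was -0.24 (all tested genes -0.045), and -0.011 with the same sum of RPKM, where the split was 3 higher and 0 lower in limma (unadjusted 6 and 1). In LAMZ-treated cells, 4 members were higher at day 14 than at day 7 (Eif1, Eif2s2, Eif3c and Eif4ebp1), against 5.10% of all tested genes, and 2 were lower, Eef1akmt1 and Eif2ak3, against 9.26%. The largest of these were Eif4ebp1 at 1.67 ± 0.11 (SE, limma adjusted p = 3.8e-04) and Eef1akmt1 at -0.96 ± 0.17 (SE, limma adjusted p = 0.00991). These counts became 1 higher and 1 lower without day 7 LAMZ replicate 1, 2 higher and 0 lower (unadjusted 3) without day 7 LAMZ replicate 2, 2 higher and 0 lower (unadjusted 10) without day 14 LAMZ replicate 1 and 3 higher and 0 lower (unadjusted 2) without day 14 LAMZ replicate 2. Under the same sum of RPKM they were 8 higher and 1 lower, centred on the median gene 7 and 2, and with no filter 2 and 2. For these settings, and for the control split with the same sum, no share of all tested genes is given. Those counts are therefore not compared with genes at large. The comparisons between days share libraries with those of LAMZ against control.

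Other genes of translation were counted beside the factors. Of 7 other TOP mRNAs, 5 were higher and 1 lower averaged (all tested genes 9.12% and 20.3%), and 2 higher and 1 lower when sums were equal (all tested genes 4.47% and 53.1%). Rack1, a ribosome-bound scaffold, changed by 0.59 ± 0.12 (SE, limma adjusted p = 0.00851), Npm1, a chaperone of ribosome assembly, by 0.74 ± 0.12 (SE, limma adjusted p = 0.00320), and Tpt1 by 0.30 ± 0.097 (SE, limma adjusted p = 0.0475), which turned to -0.030 with the same sum of RPKM and -0.036 under quantile normalization. Vim, the intermediate filament gene vimentin, another of the 7, was lower averaged (-0.40 ± 0.10, SE, limma adjusted p = 0.0223) but passed on neither day (changes of -0.50 at day 7 and -0.30 at day 14, SE 0.15, limma adjusted p = 0.0618 and 0.181), and the averaged call was lost under centring.

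Of 30 tested genes of termination, ribosome recycling, poly(A) binding and mTOR signaling, 3 were higher and 3 lower averaged (10.0% and 10.0%, against 9.12% and 20.3% of all tested genes), with a median change of 0.043. After rescaling to the same sum 2 higher and 14 lower were called (6.67% and 46.7%, against 4.47% and 53.1%). Pabpc4, a poly(A)-binding protein, had an RPKM of 20.02 and 22.4 in the day 7 controls and 31.0 and 31.4 with LAMZ at day 7. At day 14 Pabpc4 was at 18.6 and 22.4 without and 47.2 and 52.8 with LAMZ, with a change of 0.89 ± 0.093 (SE, limma adjusted p = 3.5e-04) averaged. Mknk2, a kinase that phosphorylates eIF4E, had an RPKM of 16.6 and 11.6 in the day 7 controls and 10.2 and 12.4 with LAMZ at day 7. At day 14 Mknk2 was at 13.2 and 13.1 without and 7.05 and 6.95 with LAMZ. Its groups overlapped at day 7. The change was -0.28 at day 7 (limma adjusted p = 0.323) and -0.82 at day 14 (adjusted p = 0.0110), each with an SE of 0.17, and -0.55 ± 0.12 (SE, limma adjusted p = 0.0105) averaged. The abundant helicase gene Ddx3x (0.074 ± 0.10, SE, limma adjusted p = 0.635) and Paip2 (0.16 ± 0.14, SE, limma adjusted p = 0.405) did not pass, and with equal sums both turned below 0 (-0.25 and -0.16). Of 22 cytosolic aminoacyl-tRNA synthetases, which charge tRNA for the elongation factors, 1 was higher at day 7, 14 at day 14 and 15 averaged (4.55%, 63.6% and 68.2%, against 4.35%, 6.96% and 9.12% of all tested genes). In limma 0 were lower, also 0 at an unadjusted p under 0.05. At equal sums of RPKM 5 higher and 1 lower were called averaged (22.7% and 4.55%, against 4.47% and 53.1% of all tested genes), and 12 higher at day 14 (54.5%, against 3.78%). Gars changed by 0.74 ± 0.13 (SE, limma adjusted p = 0.00387), Nars by 0.62 ± 0.10 (SE, limma adjusted p = 0.00331), Iars by 0.81 ± 0.088 (SE, limma adjusted p = 4.3e-04) and Kars by 0.30 ± 0.093 (SE, limma adjusted p = 0.0413), the last of which turned to -0.022 after rescaling.

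The 9 mitochondrial translation factors were also counted. In limma 0 were higher and 0 lower averaged (1 and 0 at an unadjusted p under 0.05), with a median change of -0.071 on the deposited scale. The median was -0.34 after rescaling to the same sum, where 3 of 9 were lower and all tested genes had a median of -0.37 with 53.1% lower. Under centring on the median gene it was 0.081, where 1 was higher, beside 16.1% of all tested genes. Tufm, the mitochondrial counterpart of eEF1A, had an averaged value of -0.029 ± 0.12 (SE, limma adjusted p = 0.881), Tsfm, its exchange factor, -0.12 ± 0.16 (SE, limma adjusted p = 0.621), and Gfm1, the counterpart of eEF2, -0.053 ± 0.15 (SE, limma adjusted p = 0.821). For these 3 the sign turned under quantile normalization and under centring on the median gene (0.12, 0.033 and 0.099).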

How the data were processed

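RNA of the 8 libraries was sequenced on an Ion Proton and assigned to genes with CLC Genomics Workbench, whose version is not given in the sources used here. The authors deposited RPKM per gene symbol, and the submitters' processing notes name mm10. In each file, 4 rows with repeated symbols were dropped. Groups were taken from the sample labels. Gene models were those of GENCODE M21 (GRCm38), matched for 47465 symbols, and promoter windows were from RefSeq. Depth was recovered as the number of mapped reads at which values of genes with a single exon block of up to 30 reads come closest to whole reads. Of the 954 to 1619 values of up to 12 reads, 93.3% to 95.9% came out whole within 0.05 reads. Depth was used only for read estimates and floors.

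Genes that reached an RPKM of 1 in 2 or more libraries entered the fit on log2(RPKM + 1). The 4 groups were fitted jointly by lmFit and by eBayes (trend = TRUE) of limma 3.58.1 under R 4.3.3, leaving 4 residual degrees of freedom. Tables were handled in Python 3.11.15 with numpy 2.4.6 and pandas 2.3.3. Adjustment of p followed Benjamini and Hochberg over all tested genes. The threshold was an adjusted p of 0.05. Lists of factors by role, TOP factors, other TOP mRNAs, ribosomal proteins, other translation genes and cell type markers were described by counts and medians. The members and lists were chosen with earlier results of these data known. The genes named are the TOP factors, the members past the threshold in a LAMZ comparison (up to 20 by size of the averaged change), the member with the highest mean RPKM of each role, and from other lists the 3 highest in mean RPKM and the called genes with the largest rise and fall. Alternatives were pseudocounts of 0.1 and 5, no filter or a mean RPKM of at least 5, 4 scalings, a replicate block, no trend, a loess correction (span 0.3) for gene length and GC content, a day alone, and each library left out. A library left alone in its group is then assumed to vary like the other groups. Left out were 7 pseudogene symbols, at no more than 1.15 RPKM.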

Additional observations from a re-analysis of the deposited data

Results flagged for a closer look

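The effect of LAMZ on Eif4ebp1 at day 14 exceeded that at day 7 by 1.31 (SE 0.15, limma adjusted p = 0.0257). At day 7 the change was 0.34 and at day 14 1.66, with 2 of 2 LAMZ libraries above both controls on each day. That call was lost without any 1 of the 8 libraries, with no filter and with a replicate block.

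The effect of LAMZ on C1qb, a macrophage marker, also differed between days, by -1.44 (adjusted p = 0.0287 from limma). All 4 LAMZ libraries were listed at 0, so this fitted value follows the control libraries, at 30.7 and 37.7 RPKM at day 7 and 91.2 and 97.4 at day 14, depends on the pseudocount and is no bound.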

How the results depend on the processing

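Counts of members called in limma and TOP medians were 5 members higher at day 7, 1 lower at day 7, 17 higher at day 14, 1 lower at day 14, 19 higher averaged, 2 lower averaged, 0 higher at day 14 than day 7 in control, 1 lower at day 14 than day 7 in control, 1 with an effect that differs between days, 0.43 (TOP median at day 7) and 0.61 (TOP median at day 14). With a pseudocount of 0.1 the values became 0 (lower at day 7) and 0 (lower at day 14 than day 7 in control). With a pseudocount of 5 the values became 0 (lower at day 7) and 2 (lower at day 14 than day 7 in control). With no filter the values became 1 (members higher at day 7), 0 (lower at day 7), 0 (lower at day 14), 12 (higher averaged), 0 (lower at day 14 than day 7 in control) and 0 (with an effect that differs between days). With a mean RPKM of at least 5 the values became 8 (members higher at day 7), 0 (lower at day 7), 0 (lower at day 14), 1 (lower averaged) and 4 (lower at day 14 than day 7 in control). With the same sum of RPKM the values became 0 (members higher at day 7), 7 (lower at day 7), 7 (higher at day 14), 8 (lower at day 14), 6 (higher averaged), 14 (lower averaged), 3 (higher at day 14 than day 7 in control), 0 (lower at day 14 than day 7 in control), 0.13 (TOP median at day 7) and 0.25 (TOP median at day 14), and log2 changes turned sign at day 7 for Eef1d (-0.12), Eif3a (-0.29), Eif3f (-0.021), Eif3c (-0.22), Eif3d (-0.14), Eif1 (-0.23), Eif3g (-0.25), Eif4a1 (-0.032) and Eif4g2 (-0.14), at day 14 for Eif3a (-0.17), Eif3e (-0.26) and Eif2a (-0.13) and averaged for Eif3a (-0.23), Eif3e (-0.077), Eif4g2 (-0.021), Eif2b2 (-0.093), Eif2s3x (-0.20), Eif2b5 (-0.021), Eif5a (-0.16), Tpt1 (-0.030), Ddx3x (-0.25), Paip2 (-0.16), Kars (-0.022) and Bglap (-0.069). With the same sum over protein-coding genes, chosen after seeing the data, the values became 3 (lower at day 7), 4 (lower at day 14), 4 (lower averaged), 4 (lower at day 14 than day 7 in control) and 0.51 (TOP median at day 14), and log2 changes turned sign at day 7 for Eif3a (-0.050) and Eif3g (-0.015), at day 14 for Eif3e (-0.0031) and averaged for Ddx3x (-0.0046). Centred on the median gene the values became 11 (members higher at day 7), 0 (lower at day 7), 31 (higher at day 14), 0 (lower at day 14), 32 (higher averaged), 1 (lower averaged), 4 (lower at day 14 than day 7 in control), 0.55 (TOP median at day 7) and 0.80 (TOP median at day 14), and log2 changes turned sign averaged for Eif4a3 (0.10), Tufm (0.12), Tsfm (0.033) and Gfm1 (0.099). With quantile normalization the values became 0 (lower at day 7), 0 (lower at day 14), 1 (higher at day 14 than day 7 in control), 2 (lower at day 14 than day 7 in control) and 0.29 (TOP median at day 7), and log2 changes turned sign averaged for Eif4a3 (0.0017), Eif5a (-0.041), Tpt1 (-0.036), Tufm (0.079), Tsfm (0.034), Gfm1 (0.11) and Col1a1 (-0.18). With a replicate block the values became 0 (lower at day 7), 2 (lower at day 14), 0 (lower at day 14 than day 7 in control) and 0 (with an effect that differs between days). Without the trend the values became 2 (members higher at day 7), 0 (lower at day 7) and 0 (lower at day 14 than day 7 in control). With the length and GC correction the values became 12 (members higher at day 7), 0 (lower at day 7), 28 (higher at day 14), 0 (lower at day 14), 29 (higher averaged), 5 (lower at day 14 than day 7 in control), 2 (with an effect that differs between days), 0.56 (TOP median at day 7) and 0.75 (TOP median at day 14), and log2 changes turned sign at day 7 for Eif2b2 (0.0010) and averaged for Eif4a3 (0.063), Tufm (0.087) and Gfm1 (0.067). With the libraries of a day alone the values became 1 (members higher at day 7) and 0 (lower at day 7). Without each library in turn, the values ranged over 0 to 3 (members higher at day 7), 0 to 1 (lower at day 7), 6 to 19 (higher at day 14), 0 to 1 (lower at day 14), 12 to 19 (higher averaged), 1 to 2 (lower averaged), 0 to 0 (lower at day 14 than day 7 in control), 0 to 0 (with an effect that differs between days) and 0.52 to 0.73 (TOP median at day 14). Log2 changes that turned sign without a library ranged at day 7 for Eef1d (-0.060 to 0.40), Eif3a (-0.051 to 0.061) and Eif3g (-0.13 to 0.20), at day 14 for Eif3a (-0.060 to 0.42) and Eif3e (-0.13 to 0.33), averaged for Eif3a (-0.027 to 0.21), Tufm (-0.13 to 0.073), Tsfm (-0.24 to 0.0064), Gfm1 (-0.18 to 0.078) and Bglap (-0.13 to 0.66). Of the single-gene changes followed, 54 with the same sum to 111 with a pseudocount of 0.1 kept direction and side of the threshold, for settings with all 8 libraries in one fit. With the same sum, 29 others lost a call, 7 gained one and 24 turned sign. With a pseudocount of 0.1, 2 lost a call, 1 gained one and 0 turned sign. No change with LAMZ against control that passed limma for a member turned sign in the comparison where it passed, except Eif4g2 averaged. The cause of these shifts was not tested. Same-numbered libraries did not deviate together (correlations of -0.0166 at day 7 and 0.0158 at day 14), so the replicate block pairs numbers only. Depth limits the members with few reads, such as Eif2s3y and the 4 untested ones.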
